A study of Mus musculus with 2 samples.

Results

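The 8 genes Adra1a, Adra1b, Adra1d, Adra2a, Adra2b, Adra2c, Adrb1 and Adrb3 encode all alpha adrenergic receptors of the mouse and its beta 1 and beta 3 receptors. They were chosen by name, and all 8 were found among the 32183 genes listed for both libraries. Their RNA was measured in single cells of the celiac and superior mesenteric ganglia, which lie behind the stomach and send sympathetic axons to the abdominal organs. Both libraries, called library 1 and library 2, came from the same kind of tissue of mice aged 7 to 8 weeks, and no genotype or treatment set them apart in the labels. The study used 20 animals, males and females in equal number. No source used here says which animals went into which library, gives a strain, or pairs the libraries with litters. The p-values therefore concern these libraries only. They rest largely on a spread pooled across genes, which may be technical, and do not measure a spread between animals. Levels were compared between cell populations of the same suspensions, which addressed the question of which ganglion cells carry RNA of receptors for noradrenaline.

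Adrenergic receptors are G protein-coupled receptors that bind noradrenaline and adrenaline. The alpha 1 receptors couple to Gq and raise calcium through phospholipase C, and they are best known for contracting vascular smooth muscle. The alpha 2 receptors couple to Gi, lower cyclic AMP and open potassium channels, and on sympathetic neurons they act as autoreceptors that restrain noradrenaline release. The beta receptors couple to Gs and raise cyclic AMP. The beta 1 receptor is known from heart muscle and the beta 3 receptor from fat cells.

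The libraries held 94521010 and 95235439 unique molecular identifiers (UMIs, 1 per captured RNA molecule) with a median of 6483 and 6498 per cell barcode, and 64 barcode sequences occurred in both. After removal of 564 and 640 barcodes scored as doublets, and of 1 barcode in library 2 below the filters on genes and UMIs, 12030 and 11638 cells were clustered without the adrenergic receptor genes and named by marker genes. Cell type names stand for cells like those types by markers, and 16 classes were named. All 16 neuron markers, all 10 markers of macrophages, smooth muscle, perineurial cells and blood endothelium, 9 of 10 pericyte markers, and 8 of 10 markers each of satellite glia and non-myelinating Schwann cells were at least 2-fold higher in their own class than in the other cells. The markers also named the classes, so these counts are a check on the names and not a result. Of the glia, 2707 cells could not be told apart as satellite glia or Schwann cells and are called unresolved glia. A cluster of 834 droplets with a median of 1831.5 UMIs stayed unnamed and entered no comparison. Neurons numbered 431 in library 1 and 412 in library 2.

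The receptor genes were sparse. Over all barcodes, library 1 and library 2 held 1244 and 1202 UMIs of Adra2a, 958 and 877 of Adra2c, 284 and 298 of Adrb1 and 227 and 257 of Adra2b. The alpha 1 genes had fewer, with 145 and 148 UMIs of Adra1b, 78 and 82 of Adra1a and 27 and 22 of Adra1d. Adrb3 had 1 UMI in library 1, in a smooth muscle cell, and 0 in library 2. Levels are given as CPM, the UMIs of a gene in a population of 1 library scaled to 1000000 UMIs of that population, and were not compared between genes.

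By the GENCODE M21 annotation of GRCm38, Adra2a lies on the plus strand of chromosome 19 from 54044151 to 54048982 and Adra2b on the plus strand of chromosome 2 from 127363208 to 127367221. Adra2c lies on the plus strand of chromosome 5 from 35278319 to 35281763 and Adrb1 on the plus strand of chromosome 19 from 56722199 to 56733113. The coding sequence of each of these 4 genes lies in 1 exon. Adra1a lies on the plus strand of chromosome 14 from 66635251 to 66771168, Adra1b on the minus strand of chromosome 11 from 43774606 to 43901210, Adra1d on the minus strand of chromosome 2 from 131545850 to 131562283 and Adrb3 on the minus strand of chromosome 8 from 27225776 to 27250616. The coding sequence of these genes is split over 2 exons, or 3 in some Adra1a transcripts. Exons of the antisense genes Gm14285 and Gm45470 overlap Adra1d and Adrb3. No source used here says whether counting used strand, so Adra1d and Adrb3 levels are uncertain in this respect.

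Promoter windows from RefSeq (GRCm38.p6) matched 5 of the 8 genes, Adra1b with a pair of windows. The 250 bases before the start site are printed for a gene higher in neurons than in the other cells (Adra2b), one highest in perineurial cells (Adra1b, the window at the outer start site) and one highest in macrophages (Adrb1), because their windows lie outside annotated exons and the genes differed in where they were high. The windows of Adra2a and Adra2c lie inside exons of the GENCODE models and are not printed. Capitals mark the motifs searched on both strands, which were the GC box GGGCGG, the CCAAT box CCAAT, the TATA box TATAAA, the cAMP response element TGACGTCA and the PU.1-type ETS site GAGGAA, an element known from myeloid promoters. All sequences run 5′ to 3′ on the gene's strand.
Adra2b, chr2:127362929-127363178, plus strand: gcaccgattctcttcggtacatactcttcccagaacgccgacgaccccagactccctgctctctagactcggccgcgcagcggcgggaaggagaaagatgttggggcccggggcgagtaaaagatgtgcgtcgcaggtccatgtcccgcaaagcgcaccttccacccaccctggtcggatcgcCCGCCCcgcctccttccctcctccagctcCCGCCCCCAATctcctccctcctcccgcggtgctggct
Adra1b, chr11:43901238-43901487, minus strand: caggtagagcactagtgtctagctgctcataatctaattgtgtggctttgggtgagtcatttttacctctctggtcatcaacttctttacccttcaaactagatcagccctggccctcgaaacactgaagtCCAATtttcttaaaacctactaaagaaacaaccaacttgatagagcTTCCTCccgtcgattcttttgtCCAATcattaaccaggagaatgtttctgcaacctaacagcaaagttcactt
Adrb1, chr19:56721867-56722116, plus strand: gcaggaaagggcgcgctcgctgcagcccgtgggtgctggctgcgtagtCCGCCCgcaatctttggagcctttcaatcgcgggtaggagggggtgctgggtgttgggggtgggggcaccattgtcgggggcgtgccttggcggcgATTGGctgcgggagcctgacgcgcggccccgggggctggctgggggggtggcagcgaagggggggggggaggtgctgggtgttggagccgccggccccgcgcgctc

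The Adra2b window held 66.0% G or C, with a GC box whose first base lay 67 bases before the start, another at 38 and a CCAAT box directly next to it at 32. The Adrb1 window held 74.0% G or C, with a GC box at 202 and a CCAAT box at 106. The printed Adra1b window held 41.6% G or C, with CCAAT boxes at 119 and 51 and a GAGGAA match at 73. The other Adra1b window, not printed, differed, with 72.8% G or C, a GC box at 185 and none of the other motifs. Of 32851 promoter windows of the same length, 32.7% held the GC box, 33.8% the CCAAT box, 12.4% the TATA box, 1.55% the cAMP response element and 23.3% the GAGGAA site, and the median G or C content was 52.4%. None of the 3 printed windows held TATAAA or TGACGTCA, and the match to GAGGAA stood in the printed window of Adra1b and not in that of Adrb1. The matches overlap no other motif and describe letters only.

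Alpha 2 receptor genes were higher in neurons than in the other cells, and alpha 1b and beta 1 receptor genes were lower. Adra2a stood at 18.2 and 19.3 CPM in neurons of library 1 and library 2, against 12.4 and 11.6 CPM in other cells. Adra2b, the sparsest of the alpha 2 genes, stood at 10.8 and 10.9 CPM in neurons, against 1.74 and 2.15 CPM in other cells. Adra2c stood at 26.0 and 21.1 CPM in neurons, against 8.82 and 8.52 CPM in other cells. For each of the 3 genes both neuron values lay above both values of the other cells. These pool all other named classes, with pericytes and perineurial cells at mean Adra2a levels of 139.6 and 49.8 CPM, above neurons. The Adra2b range of neurons overlapped that of pericytes (6.098 to 13.75 CPM). Their Adra2c range overlapped that of unresolved glia (18.13 to 23.72 CPM). The log2 fold changes were 2.33 for Adra2b (SE 0.22, adjusted p = 4.16e-05), 1.28 for Adra2c (SE 0.13, adjusted p = 5.70e-05) and 0.48 for Adra2a (SE 0.13, adjusted p = 0.0101), by edgeR's quasi-likelihood test with the library as a block and Benjamini-Hochberg adjustment over all genes tested, at a threshold of 0.05. Adra2a no longer passed in DESeq2 (adjusted p = 0.0858) or with each cell thinned to 1500 UMIs (adjusted p = 0.166).

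The neurons held 3 clusters, 160 of 843 cells, whose 50 genes of largest fold included 2 or more markers of another cell type and more of these than of neurons. The clusters of 76, 73 and 11 cells were led by Fabp7, Fxyd1 and Rarres2, by Ddr2, Ano2 and Syt10, and by Retnla, Tpsb2 and Bcl2a1b, and the last held cells of library 1 alone. In the first, Adra2c stood at 40.2 and 41.5 CPM and Adra2a at 25.6 and 27.3 CPM, and in the second Adra2c stood at 13.1 and 9.24 CPM and Adra2a at 16.3 and 7.39 CPM. In the third, Adra2c stood at 39.1 CPM and Adra2a had no UMI. Without these 3 clusters, Adra2a stood at 17.9 and 19.2 CPM in neurons (log2 fold change 0.43, SE 0.15, adjusted p = 0.0164 by edgeR), Adra2b at 10.7 and 10.9 CPM (2.28, SE 0.26, adjusted p = 3.20e-08) and Adra2c at 24.3 and 18.1 CPM (1.09, SE 0.16, adjusted p = 1.77e-06). The Adra1b and Adrb1 calls held as well (adjusted p = 0.00121 and 1.30e-05).

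Of the 8 receptor genes, 3 rose and 2 fell in neurons, 2 did not pass and Adrb3 was below the filter on low counts. Of all genes tested in this comparison, 72.5% passed, so a share of called genes near this value says little of the receptors. Part of these genes shaped the clusters, while the receptor genes took no part in clustering or naming. Adrb1 had 2 UMIs in neurons, with 0.372 and 0 CPM in neurons against 3.16 and 3.17 CPM in other cells (log2 fold change -4.16, SE 0.68, adjusted p = 9.08e-04 by edgeR). Adra1b had 4 UMIs in neurons, all in library 2, and fell with an adjusted p of 0.0348, which was 0.0995 in DESeq2, 0.128 in thinned cells and 0.220 with UMIs that clustering had not used. Of the UMIs in the other cells, macrophages held 466 of 517 for Adrb1 and perineurial cells 148 of 264 for Adra1b. By mean level, neurons ranked 8 of the 16 classes for Adrb1 and 5 for Adra1b. Adra1a stood at 0.372 and 0.616 CPM in neurons, against 0.855 and 0.811 CPM in other cells (adjusted p = 0.198). Adra1d had no UMI in neurons, and its 48 UMIs in the other cells amount to 0.318 and 0.270 CPM (adjusted p = 0.0511). It passed without the replicate block (0.0341), at resolution 2 (0.0367) and with doublets kept (0.0412), while a count of 0 in neurons allows up to 0.293 CPM, about the level in other cells, so a lower level was not detectable at this depth.

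Neuronal droplets differed in depth and in Malat1, an RNA kept in the nucleus, and the alpha 2 genes differed between 2 neuron clusters that parted in both. The neuron cluster of 527 shallow droplets had a median of 2890 UMIs and 20366 and 18807 CPM of Malat1, and there Adra2c stood at 50.9 and 41.5 CPM, Adra2a at 24.5 and 35.4 CPM and Adra2b at 13.8 and 16.3 CPM. The neuron cluster of 316 deep droplets had 73994 and 77442 CPM of Malat1, and there Adra2c stood at 15.6 and 12.3 CPM, Adra2a at 15.6 and 12.3 CPM and Adra2b at 9.50 and 8.53 CPM. Each alpha 2 gene was thus higher in the shallow cluster in both libraries. Th, the rate-limiting enzyme of noradrenaline synthesis, stood at 653 and 656 CPM in the shallow cluster and at 298 and 237 CPM in the deep one. Among finer neuron clusters, Adra2a did not always go with depth or Malat1 in this way. In 26 cells with medians of 12719.5 and 18935.5 UMIs it stood at 38.0 and 38.2 CPM (10 and 9 UMIs). Malat1 stood there at 5072 and 10444 CPM. In 77 cells with medians of 1992 and 1998 UMIs it stood at 63.8 and 87.9 CPM (6 and 9 UMIs of Adra2a), with Malat1 at 19700 and 56697 CPM. The part of droplet make-up in the neuron levels was not tested.

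Among the neurons, 2 noradrenergic types are named by the genes Shox2 and Rxfp1, with 56 and 60 Shox2-rich and 81 and 75 Rxfp1-rich cells. The 2 types cover 137 of the 431 neurons in library 1 and 135 of the 412 in library 2. They were set jointly against the same other cells as all neurons were above, so the untyped neurons stood on neither side. The neurons of the 2 types had a higher Adra2b level, at 9.76 and 9.81 CPM, against 1.74 and 2.15 CPM in other cells (log2 fold change 2.13, SE 0.32, adjusted p = 8.41e-10 by edgeR). Adra2c stood at 16.5 and 11.3 CPM in these neurons, against 8.82 and 8.52 CPM in other cells, with an adjusted p of 0.0376 that was 0.271 in DESeq2, 0.135 with no filter on low counts, 0.0515 with doublets kept, 0.742 with UMIs that clustering had not used and 0.953 in thinned cells. Adra2a stood at 14.5 and 12.1 CPM in these neurons, against 12.4 and 11.6 CPM in other cells, and did not pass (log2 fold change -0.06, SE 0.20, adjusted p = 0.791). With sums scaled to their totals its log2 fold change was 0.15 (adjusted p = 0.496). Of the 8 genes, 2 rose and 2 fell (Adra1b and Adrb1, with 1 UMI each in these neurons), where 74.3% of all genes tested passed. The Adra1b call was lost in DESeq2 (0.0953), with UMIs that clustering had not used (0.0908) and in thinned cells (0.454), and the Adrb1 call in thinned cells (0.260).

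Between the neuron types, Adra2a was the single one of the 8 genes past the threshold. It stood at 24.0 and 17.4 CPM in Shox2-rich neurons, against 9.33 and 8.34 CPM in Rxfp1-rich neurons, from 44 and 31 UMIs over both libraries. Both Shox2-rich values lay above both Rxfp1-rich values, and the log2 fold change was 1.17 (SE 0.37, adjusted p = 0.0403 by edgeR), where 12.9% of all genes tested passed. The call was lost with DESeq2's size factors in edgeR (adjusted p = 0.0616), with UMIs that clustering had not used (0.181) and in DESeq2 itself, and the thinned cells gave no test. Adra2b stood at 5.76 and 7.32 CPM in Shox2-rich neurons, against 11.9 and 11.5 CPM in Rxfp1-rich neurons, and did not pass (log2 fold change -0.89, SE 0.46, adjusted p = 0.265). Adra2c stood at 16.3 and 10.1 CPM in Shox2-rich neurons and at 16.6 and 12.2 CPM in Rxfp1-rich neurons (log2 fold change -0.18, SE 0.37, adjusted p = 0.835), and its groups overlapped. When clusters were drawn at resolution 2, which changed the cells in both types, Adra2c instead had a log2 fold change of 1.88 (adjusted p = 0.00444 by edgeR). The Shox2-rich type was then 94 shallow droplets with a median of 2858.5 UMIs. The Rxfp1-rich clusters were deep, with medians of 22278, 21645 and 28645 UMIs. The part of depth in the Adra2c value at resolution 2 was not tested. The other 5 genes had 0 to 3 UMIs in both types together and were not tested.

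Droplets of every abundant class carried some RNA of the neuronal gene Th. Th stood at 86.2 and 81.4 CPM in blood endothelial cells and at 84.3 and 87.0 CPM in macrophages, classes that should lack it. For each 100 UMIs of Th, neurons held 4.52 and 5.31 UMIs of Adra2a, blood endothelial cells 6.89 and 7.30, macrophages 7.31 and 7.19, and the unnamed shallow droplets 10.9 and 10.5. The ratio of Adra2a to Th in endothelial cells and macrophages therefore lay between that of neurons and that of the unnamed droplets. For Adra2c the ratios were 6.46 and 5.82 in neurons, 4.74 and 7.78 in blood endothelial cells and 5.48 and 4.75 in macrophages. For Adra2b they were 2.67 and 2.99 in neurons, 1.87 and 1.43 in blood endothelial cells and 2.09 and 2.31 in macrophages. Dendritic cells held 12.35 and 12.7 UMIs of Adra2a for each 100 of Th, and fibroblasts 10.7 and 9.56. The part of free neuronal RNA in these levels was not tested. Ratios further from those of all neurons are given below for Adra2a in pericytes and perineurial cells and Adra2c in satellite and unresolved glia. They are also given for Adra2b in mural cells, where those of library 1 were close to Rxfp1-rich neurons.

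**Figure D1:**
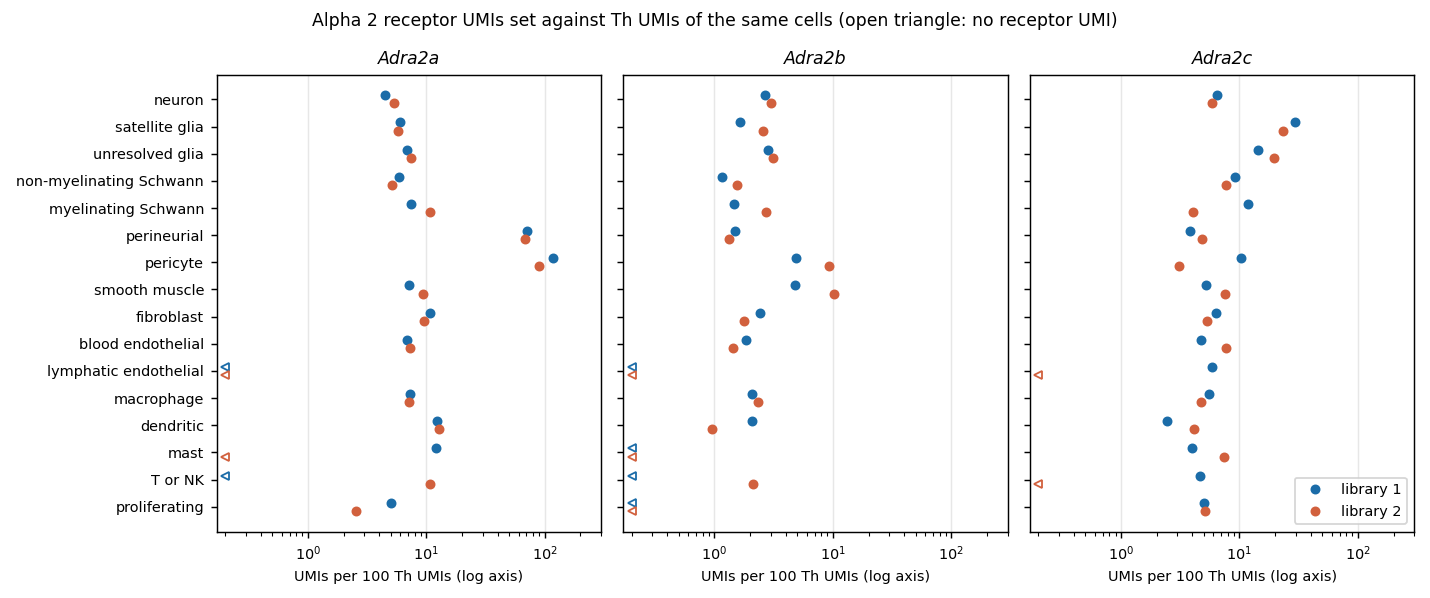
UMIs of Adra2a, Adra2b and Adra2c per 100 Th UMIs in the same cells, on a log axis, for each named cell type (rows) in library 1 and library 2 (points), with an open triangle where no receptor UMI was counted. Macrophages (7.31 and 7.19 for Adra2a) and blood endothelial cells (6.89 and 7.30) lie near neurons (4.52 and 5.31), whereas pericytes (117 and 89.4) and perineurial cells (71.3 and 68.6) stand apart for Adra2a and satellite glia (29.5 and 23.3) for Adra2c.

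Pericytes, the contractile cells wrapped around capillaries, had the highest Adra2a level of all cell types. It stood at 146 and 133 CPM in pericytes (mean 139.6 ± 9.50 SD, n = 2 libraries), 49.9 and 49.7 CPM in perineurial cells (49.8 ± 0.149) and 18.2 and 19.3 CPM in neurons (18.8 ± 0.766). The library ranges of these 3 classes did not overlap, nor did that of neurons and the next class, myelinating Schwann cells, at 10.7 and 16.4 CPM. The remaining classes stood below 9 CPM on average. For each 100 UMIs of Th, pericytes held 117 and 89.4 UMIs of Adra2a and perineurial cells 71.3 and 68.6, against 7.31 and 7.19 in macrophages.

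Smooth muscle cells and pericytes, the mural cells of vessels, parted over their receptor genes. Adra2a stood at 5.92 and 8.62 CPM in smooth muscle, against 146 and 133 CPM in pericytes (log2 fold change -4.06, SE 0.20, adjusted p = 2.71e-65 by edgeR). For each 100 UMIs of Th, smooth muscle held 7.14 and 9.33 UMIs of Adra2a, against 117 and 89.4 in pericytes. Adra1a, the alpha 1A receptor that mediates contraction of small arteries, went the other way, at 7.49 and 9.03 CPM in smooth muscle, against 0 and 1.31 CPM in pericytes. Its log2 fold change was 3.71 (SE 0.72, adjusted p = 2.09e-06) from 41 UMIs in smooth muscle and 2 in pericytes, and it did not pass in DESeq2 (adjusted p = 0.0983) and could not be tested in thinned cells or with UMIs that clustering had not used. Adra2b stood at 3.94 and 9.44 CPM in smooth muscle, against 6.098 and 13.7 CPM in pericytes, and did not pass (log2 fold change -0.38, SE 0.42, adjusted p = 0.536). Adra2c stood at 4.34 and 6.98 CPM in smooth muscle, against 12.9 and 4.58 CPM in pericytes, with opposite directions in the libraries (adjusted p = 0.530).

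Of the 8 genes, Adra1a rose and Adra2a fell in smooth muscle against pericytes, where 36.7% of all genes tested passed, and 4 genes were below the filter. Among these, Adra1b stood at 1.97 and 0.411 CPM in smooth muscle, against 7.45 and 4.58 CPM in pericytes, from 6 and 18 UMIs, and it passed as lower where it was tested, with doublets kept (adjusted p = 0.0182) and with no filter (0.0418). Adra1d, the alpha 1D receptor known from large arteries, stood at 3.15 and 2.46 CPM in smooth muscle, against 2.03 and 2.62 CPM in pericytes, from 14 and 7 UMIs, and its groups overlapped.

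Summed over smooth muscle and pericytes, mural cells had higher levels of all 3 alpha 1 genes and of Adra2a and Adra2b than other cells. Not every gene was higher in both types. Pericytes held 419 of the 455 mural Adra2a UMIs, and smooth muscle, at 5.91 and 8.62 CPM, lay below the other cells. Smooth muscle held 41 of the 43 mural Adra1a UMIs. Its Adra1b level, 1.97 and 0.411 CPM, lay above the other cells (1.44 and 1.51 CPM) in library 1 and below them in library 2. Adra2a stood at 57.6 and 56.5 CPM in mural cells, against 10.6 and 9.94 CPM in other cells (log2 fold change 2.63, SE 0.10, adjusted p = 1.46e-11 by edgeR). Adra1d stood at 2.74 and 2.52 CPM in mural cells, against 0.180 and 0.146 CPM in other cells (4.15, SE 0.59, adjusted p = 3.40e-05). Adra1a stood at 4.74 and 6.06 CPM in mural cells, against 0.637 and 0.547 CPM in other cells (3.34, SE 0.39, adjusted p = 4.76e-06). For these genes the groups did not overlap and the libraries differed little.

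Library 2 weighed more in the Adra2b call. The level was 4.74 and 11.1 CPM in mural cells, against 2.18 and 2.23 CPM in other cells (log2 fold change 1.98, SE 0.31, adjusted p = 8.81e-05), and the log2 ratio with 1 CPM added was 0.85 in library 1 alone and 1.90 in library 2 alone. For each 100 Th UMIs, pericytes held 4.89 and 9.25 and smooth muscle 4.76 and 10.2 Adra2b UMIs, above the 2.67 and 2.99 of all neurons in both libraries. Rxfp1-rich neurons held 4.41 and 5.88. The library 1 ratios of pericytes and smooth muscle, from 9 and 10 Adra2b UMIs, were thus close to the ratio of this neuron type. Adra1b stood at 3.99 and 2.02 CPM in mural cells, against 1.44 and 1.51 CPM in other cells, with an adjusted p of 0.0288. Its log2 ratio was 1.03 in library 1 alone and 0.27 in library 2 alone, and it passed neither in DESeq2 (adjusted p = 0.209) nor with doublets kept (0.0501), totals without TMM (0.0506), UMIs that clustering had not used (0.395) or thinned cells (0.132). Adrb1 fell in mural cells, at 0.249 and 0.757 CPM against 3.12 and 3.097 CPM in other cells (adjusted p = 0.00216, and 0.231 in thinned cells), and Adra2c did not pass (adjusted p = 0.146). These other cells include the macrophages. In all, 5 genes rose and 1 fell, where 50.8% of all genes tested passed.

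Perineurial cells, which form the barrier sheath around nerve and ganglion, were compared with the other cells after their levels had been seen. Their Adra1b level was the highest of all classes, at 11.2 and 14.1 CPM, against 0.757 and 0.727 CPM in other cells (log2 fold change 4.21, SE 0.26, adjusted p = 6.72e-24 by edgeR). They held 148 of the 268 Adra1b UMIs in the named cells. Adra2a stood at 49.9 and 49.7 CPM, against 9.65 and 9.67 CPM in other cells (2.50, SE 0.09, adjusted p = 6.45e-36). For both genes the groups lay far apart in both libraries. Neither Adra1a nor Adra1d rose with them. Adra1a had no UMI in perineurial cells and Adra1d had 2.

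Adra1a was at least 3.45-fold lower in perineurial cells than in other cells, counting 3 UMIs over both libraries as the floor that a count of 0 allows (adjusted p = 0.00130, and 0.0550 in DESeq2). Adra2c fell to 2.70 and 3.47 CPM in perineurial cells, against 10.5 and 9.60 CPM in other cells (log2 fold change -1.60, SE 0.22, adjusted p = 2.14e-09, and 0.475 in thinned cells). Adra2b fell to 1.05 and 0.963 CPM, against 2.40 and 2.75 CPM in other cells (adjusted p = 0.00966), and did not pass in DESeq2 (0.201) or thinned cells (0.186). Adrb1 fell to 0.150 and 1.16 CPM, against 3.23 and 3.11 CPM in other cells (adjusted p = 2.35e-05), with log2 ratios of -1.88 in library 1 alone and -0.93 in library 2 alone. These other cells include the macrophages. Together 2 genes rose and 4 fell, where 60.6% of all genes tested passed. An Adra1b UMI was found in 7.88% and 9.76% of perineurial cells with an Adra2a UMI and in 7.96% and 7.28% of those without one.

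**Figure D2:**
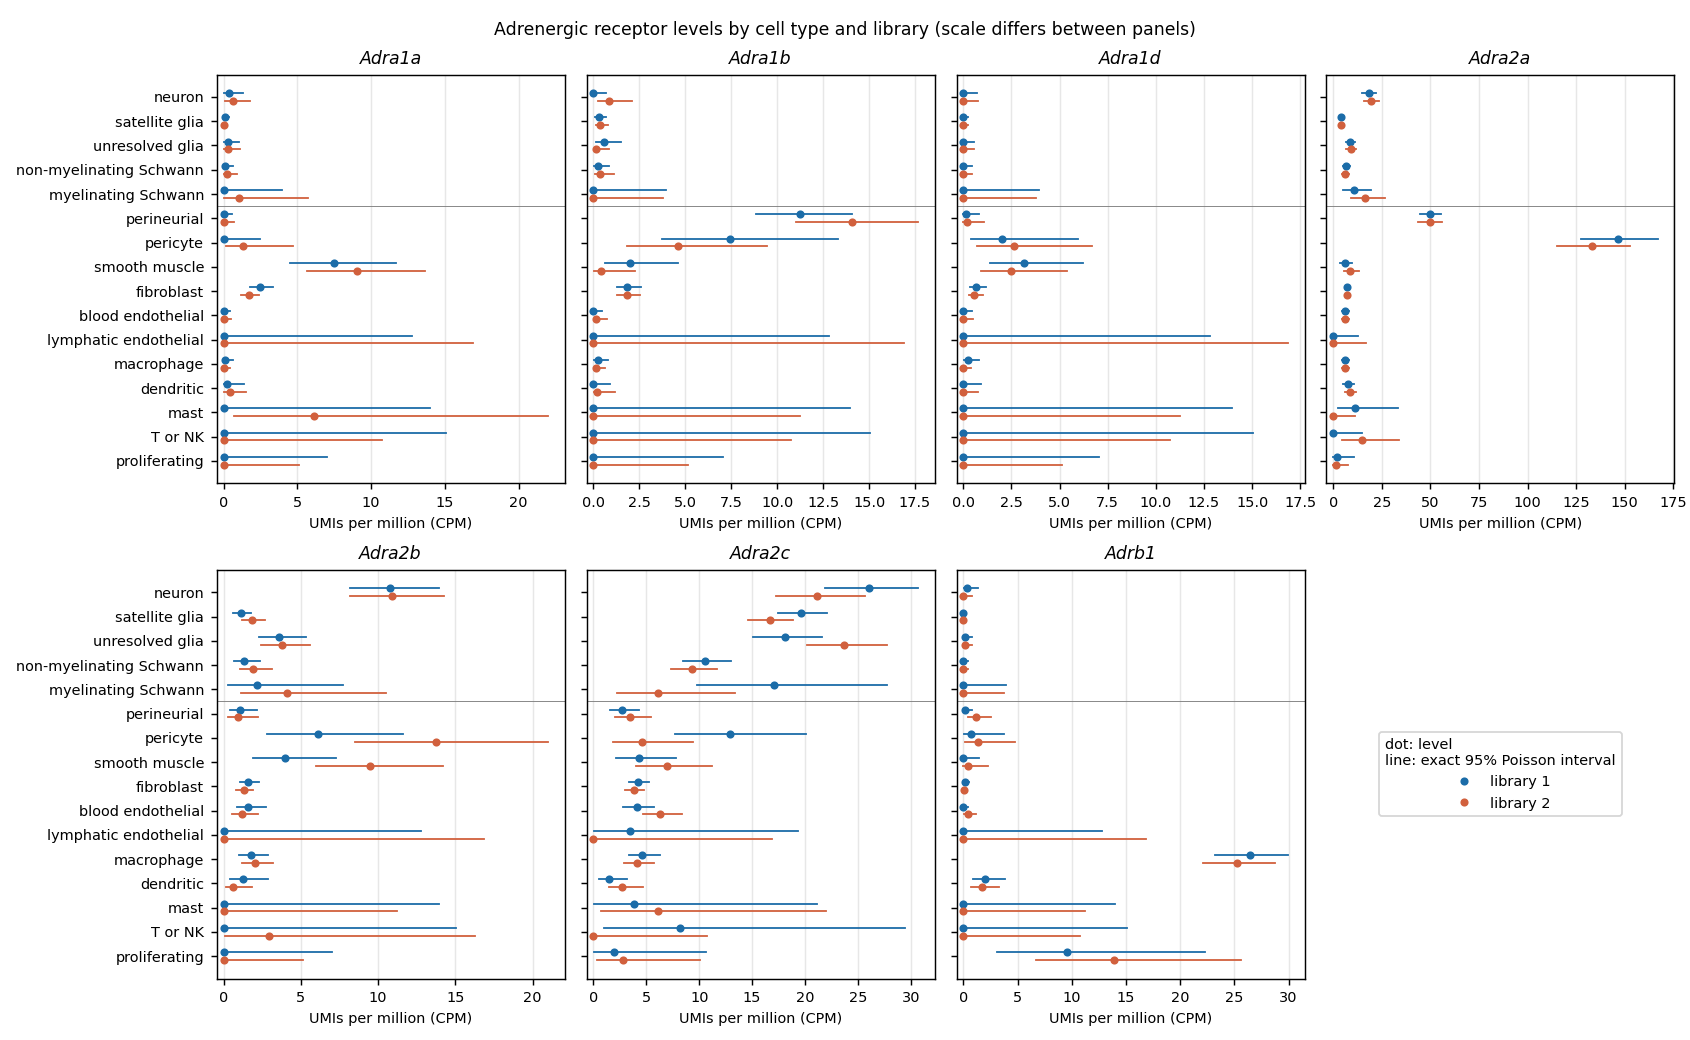
Level of 7 receptor genes (panels) in CPM, on a linear axis that differs between panels, in the 16 named cell types (rows) of library 1 and library 2 (dots), with exact 95% Poisson intervals (lines) that cover counting error only. Adra2a is highest in pericytes (146 and 133 CPM) and perineurial cells (49.9 and 49.7 CPM), Adra1a in smooth muscle (7.49 and 9.03 CPM) and Adrb1 in macrophages (26.4 and 25.2 CPM), and rare classes have wide intervals.

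Glia were higher in Adra2c than the other cells and lower in most other receptor genes. Adra2c stood at 16.8 and 15.9 CPM in glia, against 6.18 and 5.71 CPM in other cells (log2 fold change 1.57, SE 0.08, adjusted p = 1.85e-13 by edgeR), and the groups did not overlap. Within glia it stood at 19.6 and 16.6 CPM in satellite glia, which wrap the cell bodies of neurons, 18.1 and 23.7 CPM in unresolved glia, 17.1 and 6.14 CPM in myelinating Schwann cells and 10.6 and 9.28 CPM in non-myelinating Schwann cells. The library ranges of neurons (26.0 and 21.1 CPM), unresolved glia and satellite glia overlapped each with the next. In satellite glia Th stood at 66.5 and 71.3 CPM, lower than in blood endothelial cells (86.2 and 81.4 CPM), where Adra2c stood at 4.08 and 6.33 CPM. For each 100 Th UMIs, satellite glia held 29.5 and 23.3 UMIs of Adra2c, against 6.46 and 5.82 in neurons. Unresolved glia held 14.4 and 19.8, non-myelinating Schwann cells 9.19 and 7.65 and myelinating Schwann cells 11.8 and 4.05. The Adra2a ratio of satellite glia, by contrast, was 5.99 and 5.78, close to that of neurons at 4.52 and 5.31.

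Satellite glia were higher in Adra2c than non-myelinating Schwann cells (log2 fold change 0.98, SE 0.13, adjusted p = 2.59e-13 by edgeR). The values were 19.6 and 16.6 CPM in satellite glia, against 10.6 and 9.28 CPM in non-myelinating Schwann cells, from 524 and 162 UMIs. Adra2a was lower in satellite glia, at 3.98 and 4.13 CPM, against 6.73 and 6.27 CPM in non-myelinating Schwann cells (-0.57, SE 0.21, adjusted p = 0.0169), and passed in none of DESeq2 (adjusted p = 0.429), doublets kept (0.213), resolution 2 (0.0847) or thinned cells (0.0772). Th moved with it, at 66.5 and 71.3 CPM in satellite glia and 115 and 121 CPM in non-myelinating Schwann cells, and its part in the Adra2a value was not tested. Adra2b stood at 1.10 and 1.82 CPM in satellite glia and 1.32 and 1.88 CPM in non-myelinating Schwann cells, and its groups overlapped (adjusted p = 0.966). Of the 8 genes, 1 rose and 1 fell, where 47.6% of all genes tested passed, and the other 5 were below the filter.

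In glia as a whole, 1 gene rose and 5 fell, where 80% of all genes tested passed. Adra2a fell to 5.96 and 6.16 CPM, against 16.4 and 15.2 CPM in other cells (log2 fold change -1.27, SE 0.09), which include the pericytes and perineurial cells. Adrb1 had 2 UMIs in glia and 517 in other cells, 466 of them in macrophages, and Adra1a had 9 and 132. Adra1b had 19 UMIs in glia and 249 in other cells. Adra1d had none in glia and was at least 8.55-fold lower than in other cells. Adra2b did not pass (adjusted p = 0.109), at 1.73 and 2.34 CPM in glia and 2.59 and 2.80 CPM in other cells.

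Against the other cells, which include pericytes, perineurial cells and macrophages, fibroblasts rose in the 3 alpha 1 genes and fell in the alpha 2 genes and Adrb1. Adra1a stood at 2.50 and 1.70 CPM in fibroblasts, against 0.390 and 0.538 CPM in other cells (log2 fold change 2.50, SE 0.31, adjusted p = 6.95e-05 by edgeR). Adra1d stood at 0.665 and 0.568 CPM in fibroblasts, against 0.202 and 0.164 CPM in other cells (2.07, SE 0.44, adjusted p = 0.00208), and did not pass in DESeq2 (adjusted p = 0.0854). Adra1b stood at 1.83 and 1.81 CPM in fibroblasts, against 1.49 and 1.45 CPM in other cells, and its call (0.64, SE 0.22, adjusted p = 0.0244) was lost in DESeq2 (0.326), with totals without TMM (0.225), with UMIs that clustering had not used (0.0872), at resolution 2 (0.0537) and in thinned cells (0.586). For each alpha 1 gene both fibroblast values lay above both values of the other cells.

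Fibroblast clusters differed in which alpha 1 gene they held. A cluster of 847 cells led by C7, C3 and Dpt had 9.44 and 9.94 CPM of Adra1b and 0.944 and 0.602 CPM of Adra1a. The 2061 cells led by Smim41, Spp1 and Cxcl1 had 0.109 and 0 CPM of Adra1b and 2.93 and 1.59 CPM of Adra1a. The 1213 cells led by Bmp5, Dlk1 and Smoc2 had 0.206 and 0 CPM of Adra1b and 2.47 and 2.36 CPM of Adra1a. A smaller cluster of 445 shallow cells led by Egfros, Fat3 and Bmper had 1.26 and 2.31 CPM of Adra1b and 3.78 and 3.47 CPM of Adra1a, from 3 and 6 UMIs. Adra1b was highest and Adra1a lowest in the same one of these 4 clusters, in both libraries, and the clusters were set side by side after their values were seen. Of the 8 genes, 3 rose and 4 fell in fibroblasts, where 71.8% of all genes tested passed. Adra2a fell to 7.10 and 6.92 CPM in fibroblasts, against 14.2 and 13.6 CPM in other cells, and Adra2c to 4.21 and 3.82 CPM, against 11.4 and 10.8 CPM in other cells. By mean level, fibroblasts ranked 9 of the 16 classes for Adra2a and 12 for Adra2c. Adra2b fell too (adjusted p = 0.0390), and passed neither in DESeq2 (0.369), nor with UMIs that clustering had not used (0.104), nor in thinned cells (0.429).

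Blood endothelial cells, which line the vessels, had almost none of the alpha 1 or beta 1 receptor RNA. Adra1a and Adra1d had no UMI in the 976 and 880 cells, Adra1b had 1 and Adrb1 had 3. Adra1a was at least 4.72-fold lower and Adra1d at least 1.61-fold lower than in other cells, with 3 UMIs over both libraries as the floor. The Adra1d call (adjusted p = 0.0352) was lost with doublets kept (0.363) and with no filter on low counts (0.0559), and DESeq2 gave it no adjusted p. Adra2a stood at 5.93 and 5.94 CPM in blood endothelial cells, against 13.4 and 12.7 CPM in other cells (log2 fold change -0.91, SE 0.15, adjusted p = 1.21e-04 by edgeR). The other cells include the pericytes, perineurial cells and macrophages. Adra2c stood at 4.08 and 6.33 CPM, against 10.5 and 9.52 CPM in other cells (adjusted p = 0.00496), and did not pass in DESeq2 (0.104) or thinned cells (0.0607). In all, 6 genes fell and none rose, where 66.7% of all genes tested passed. Adra2b did not pass (adjusted p = 0.0843), and lymphatic endothelial cells, 32 and 28 in number, held 1 UMI of Adra2c and none of the other 7 genes.

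Macrophages held most of the beta 1 receptor RNA of the ganglion. Adrb1 stood at 26.4 and 25.2 CPM in macrophages (mean 25.8 ± 0.816 SD, n = 2 libraries), 9.54 and 13.9 CPM in proliferating cells, 1.97 and 1.69 CPM in dendritic cells and at most 1.31 CPM in any other class and library. The library ranges of macrophages, proliferating cells and dendritic cells did not overlap. Macrophages held 466 Adrb1 UMIs, proliferating cells 15 and dendritic cells 16. The 2103 macrophages led by Ccl12, Cx3cr1 and C1qa had 26.7 and 25.9 CPM, and the 131 macrophages led by Cd209f, Folr2 and Lyve1, genes of resident macrophages near vessels, had 21.4 and 16.2 CPM. The 25 and 36 proliferating cells are a class named by cell cycle genes alone, and dendritic markers scored second in it. They were not counted as immune cells below, and held 15 of the 37 Adrb1 UMIs of the other cells there.

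Immune cells together stood at 18.2 and 16.3 CPM of Adrb1, against 0.177 and 0.334 CPM in other cells. The log2 fold change of 6.5 (SE 0.21, adjusted p = 2.93e-15 by edgeR) was the highest of the 8 genes in the 11 comparisons, and the 9 other settings with a test kept it past the threshold. Adra2c fell to 3.73 and 3.62 CPM in immune cells, against 11.03 and 10.4 CPM in other cells (-1.11, SE 0.14, adjusted p = 1.16e-06). Adra2a fell to 6.51 and 7.03 CPM, against 13.9 and 13.1 CPM in other cells (adjusted p = 2.57e-04), which include the pericytes and perineurial cells. This Adra2a call did not pass in DESeq2 (0.0681). Adra1b had 4 UMIs in immune cells and 264 in other cells, and Adra1a had 6 and 135, and both fell. The Adra1a call was lost in DESeq2 (adjusted p = 0.201) and the Adra1b call in thinned cells (0.0950). In all, 1 gene rose and 4 fell, where 76.5% of all genes tested passed, and Adra1d and Adra2b did not pass (adjusted p = 0.151 and 0.190).

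**Figure D3:**
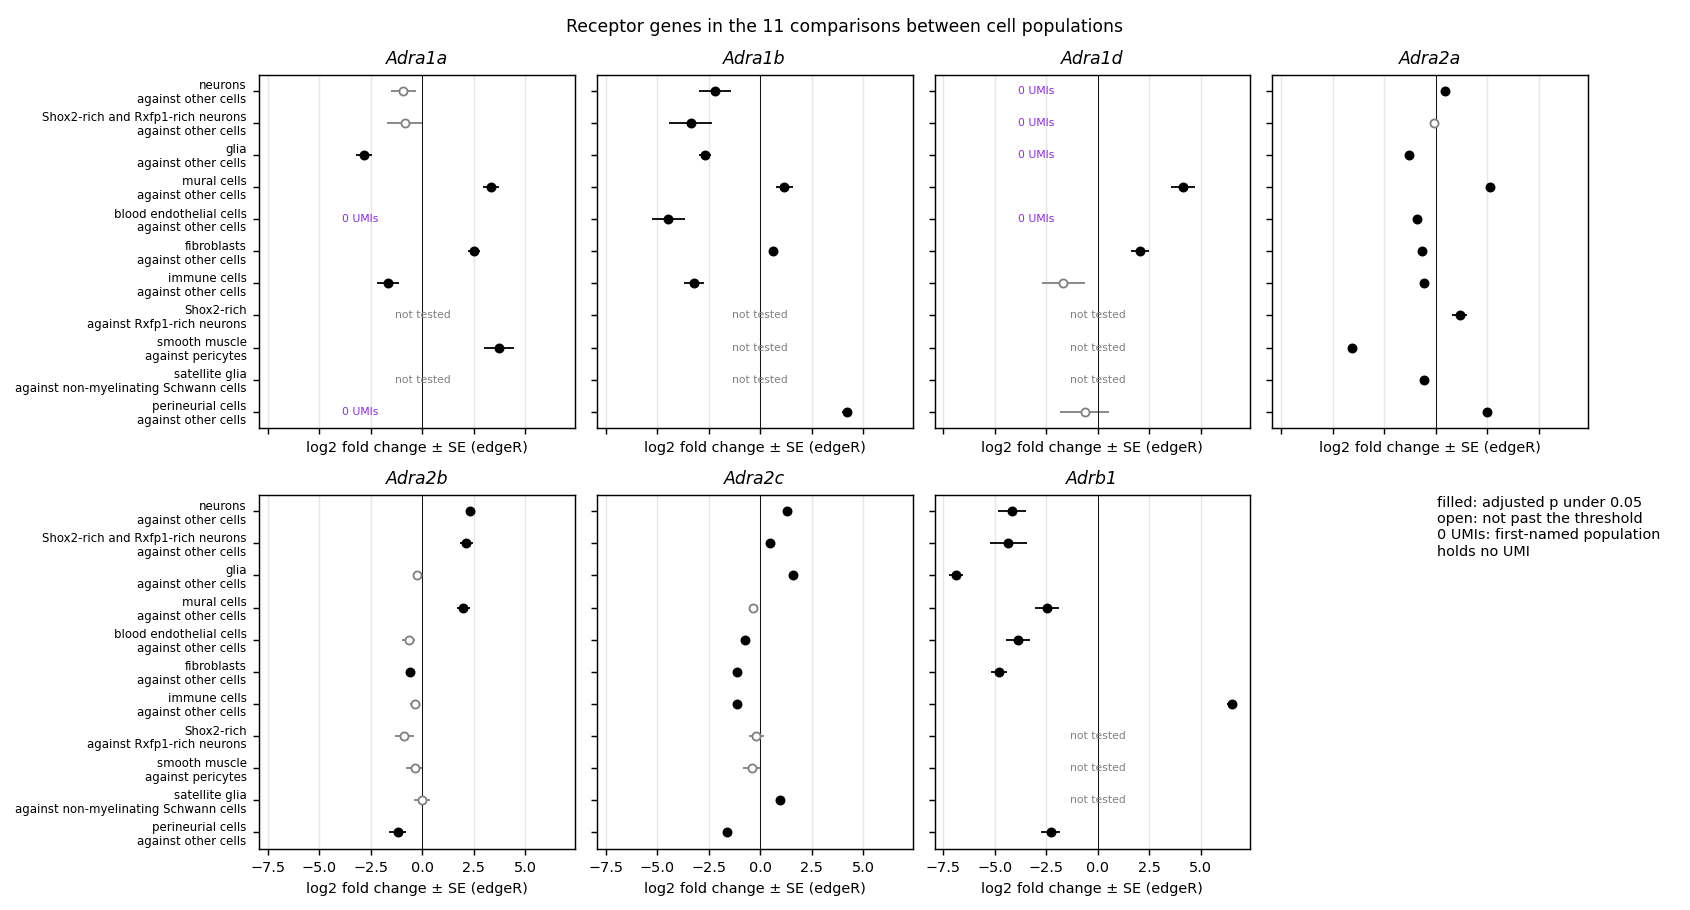
Log2 fold change of 7 receptor genes (panels) with the standard error of edgeR's fit, first-named population over the other, in 11 comparisons (rows), with filled points at an adjusted p under 0.05. Adrb1 is higher in immune cells (6.5) and lower in the 7 other comparisons with other cells, which there include the macrophages. The alpha 1 genes are higher in mural cells and fibroblasts.

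Shares of cells with a UMI depend on depth, so cells were also thinned to 3000 UMIs, and cells with fewer were left out. The shallow neuron cluster, with a median of 2890 UMIs, lost most of its cells in this way. Shares after thinning are thus shares of the deeper cells of each class. Adra2a was found in 40% (exact 95% interval 34.3 to 45.9) and 41.4% (35.7 to 47.2) of pericytes, and in 27.3% and 27.0% after thinning. In perineurial cells the shares were 27.8% and 26.0%, and 12.5% and 13.6% after thinning. In macrophages and blood endothelial cells they were 4.80% and 5.05%, and 4.51% and 4.89%, and all 4 lay below 2% after thinning. Smooth muscle had 3.35% (1.69 to 5.92) and 1.66% (0.540 to 3.82) after thinning, with intervals that overlapped those of macrophages (0.939 to 2.56 and 0.990 to 2.70). Neurons had 17.4% and 17.2%, and 5.34% and 8.63% after thinning, above those upper bounds in macrophages.

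Adra2c was found in 22.5% and 18.0% of neurons and in 15.3% and 13.5% of satellite glia. After thinning the shares were 8.19% and 7.91% in neurons, 5.93% and 5.01% in satellite glia, 4.92% and 6.98% in unresolved glia, 2.98% and 2.39% in non-myelinating Schwann cells, 1.89% and 0.997% in macrophages and 1.17% and 2.75% in blood endothelial cells. Satellite glia thus lay above macrophages and blood endothelial cells in both libraries. Adrb1 was found in 16.01% and 14.1% of macrophages, and in 7.47% and 6.98% after thinning. In blood endothelial cells, before thinning, the shares were 0% (exact 95% interval up to 0.377%) and 0.341%, which concern cells with a UMI at that depth. Adra1b was found in 7.93% and 7.92% of perineurial cells, and in 2.81% and 3.64% after thinning, against 0.0945% and 0% in macrophages.

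**Figure D4:**
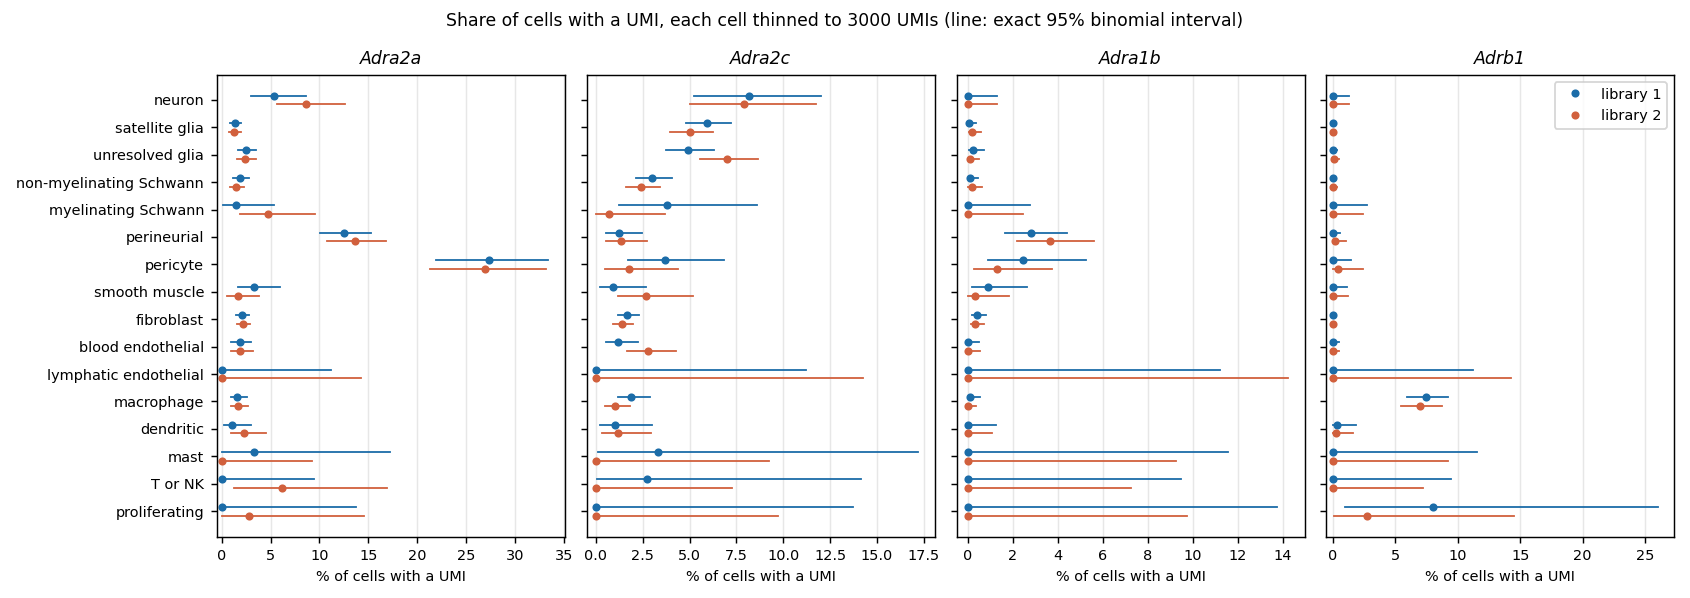
Share of cells with at least 1 UMI of Adra2a, Adra2c, Adra1b and Adrb1 (panels) after thinning to 3000 UMIs, by cell type (rows) and library (dots). Cells with fewer UMIs were left out, and lines are exact 95% binomial intervals. Pericytes reach 27.3% and 27.0% for Adra2a, neurons 8.19% and 7.91% for Adra2c, and macrophages 7.47% and 6.98% for Adrb1.

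Co-detection of the alpha 2 genes in single neurons is given without matching for depth. An Adra2c UMI was found in 34.7% and 32.4% of neurons with an Adra2a UMI, and in 19.9% and 14.96% of those without one. An Adra2b UMI was found in 20.0% and 25.4% of neurons with an Adra2a UMI, and in 10.4% and 7.62% of those without one. The part of droplet depth in these shares was not tested.

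Genes of likest pattern were ranked by Pearson's correlation of log2(CPM + 1) over the 16 cell types, given here as a description over points that share 2 libraries. Adrb1 came closest to Csf3r (0.98), the receptor of a granulocyte growth factor, and to Fcgr1 (0.92) and C3ar1 (0.92), an antibody and a complement receptor of myeloid cells. Adra2c came closest to Unc80 (0.93), Slc35g2 (0.93) and Syt11 (0.92), and Adra2b to Sh3gl2 (0.93), Mir670hg (0.91) and Dnajc27 (0.90). The likest genes of Adra2a were Xpc (0.84), Sema5b (0.81) and B3galt1 (0.78). For Adra1b they were Dact1 (0.89), Cdk15 (0.88) and 9630002D21Rik (0.88). For Adra1a they were Ccdc174 (0.82), Cnn1 (0.81), a calponin of smooth muscle, and Blmh (0.80).

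Genes that act with these receptors were counted over 8 lists of 72 names, of which 70 were found, and 60 to 69 were tested per comparison. In neurons against other cells 33 of 69 rose and 27 fell, where 72.5% of all genes tested passed. The counts were 11 and 49 of 68 in glia (80% of all genes), 31 and 23 of 69 in mural cells (50.8%), 22 and 35 of 68 in blood endothelial cells (66.7%), 16 and 43 of 68 in fibroblasts (71.8%), and 33 and 28 of 69 in the neurons of both types (74.3%). In satellite glia against non-myelinating Schwann cells 11 of 61 rose and 28 fell, where 47.6% of all genes passed, and in Shox2-rich against Rxfp1-rich neurons 17 of 60 rose and 10 fell, where 12.9% passed. Medians below are of log2 fold changes over a list, beside the median over all genes tested, and no list was tested as a set. Th of the noradrenaline supply list was found in classes that should lack it. The part of free neuronal RNA in the counts of that list outside neurons was not tested. Regulators of G protein signalling, receptor kinases and arrestins end receptor signals. Phospholipase C beta and IP3 receptors act after Gq, and adenylyl cyclases, protein kinase A and phosphodiesterases make, sense and break down cyclic AMP. The values in parentheses are log2 fold changes with their standard errors by edgeR.

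In neurons against other cells, the median over all genes tested was -0.12, and 33.3% of them rose and 39.2% fell. Of the 13 G protein alpha subunits, 5 rose, 5 fell and 3 did not pass (median 0.11), with Gnal (3.44, SE 0.08) and Gnao1 (2.92, SE 0.08) furthest from 0. Among the 8 regulators of G protein signalling, 3 rose and 5 fell (median -1.22), led by Rgs7 (6.5, SE 0.09) and Rgs16 (-3.27, SE 0.18). Receptor kinases and arrestins, 7 in number, gave a median of -0.37, and 1 rose, 4 fell and 2 did not pass, headed by Grk3 (2.53, SE 0.07) and Arrb2 (-1.63, SE 0.14). Of the 7 phospholipase C beta and IP3 receptors, 1 rose, 5 fell and 1 did not pass (median -1.77), with Plcb1 (-3.30, SE 0.12) and Itpr2 (-3.06, SE 0.10) furthest from 0. Among the 9 adenylyl cyclases, 5 rose and 4 fell (median 0.32), led by Adcy8 (5.85, SE 0.12) and Adcy4 (-4.27, SE 0.36). Protein kinase A and phosphodiesterase genes, 12 in number, gave a median of 0.81, and 8 rose, 2 fell and 2 did not pass, headed by Pde4b (4.09, SE 0.07) and Pde4c (-3.82, SE 0.47). Of the 3 subunits of G protein-gated potassium channels, 2 rose, 0 fell and 1 did not pass (median 2.36), with Kcnj3 (6.01, SE 0.10) and Kcnj9 (2.36, SE 0.34) furthest from 0. Among the 10 genes of noradrenaline supply and clearance, 8 rose and 2 fell (median 2.13), led by Slc22a3 (-3.34, SE 0.41) and Slc18a2 (2.69, SE 0.07). Kcnj3 encodes a potassium channel subunit that Gi-coupled receptors open, Rgs7 shortens signals of Gi and Go, and Gnao1 encodes the Go alpha subunit of neurons.

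In smooth muscle against pericytes, the median over all genes tested was -0.001, and 18.5% of them rose and 18.2% fell. Of the 12 G protein alpha subunits, 2 rose, 3 fell and 7 did not pass (median -0.06), with Gnai1 (-1.49, SE 0.18) and Gnaq (-0.84, SE 0.10) furthest from 0. Among the 8 regulators of G protein signalling, 3 rose, 3 fell and 2 did not pass (median -0.0044), led by Rgs16 (-3.52, SE 0.18) and Rgs3 (-1.07, SE 0.17). Receptor kinases and arrestins, 7 in number, gave a median of -0.13, and 0 rose, 1 fell and 6 did not pass, headed by Grk5 (-1.33, SE 0.09). Of the 6 phospholipase C beta and IP3 receptors, 2 rose, 2 fell and 2 did not pass (median -0.04), with Itpr1 (1.55, SE 0.10) and Itpr2 (-1.27, SE 0.21) furthest from 0. Among the 6 adenylyl cyclases, 2 rose, 1 fell and 3 did not pass (median 0.03), led by Adcy5 (2.32, SE 0.18) and Adcy9 (1.0, SE 0.10). Protein kinase A and phosphodiesterase genes, 11 in number, gave a median of 0.13, and 4 rose, 5 fell and 2 did not pass, headed by Pde4d (-1.64, SE 0.10) and Prkar2a (1.24, SE 0.16). Of the 10 genes of noradrenaline supply and clearance, 1 rose, 5 fell and 4 did not pass (median -0.35), with Slc22a3 (3.66, SE 0.62) and Slc6a2 (-0.46, SE 0.10) furthest from 0. Itpr1 encodes a calcium channel of the calcium store that acts downstream of Gq.

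In perineurial cells against other cells, the median over all genes tested was -0.05, and 28.4% of them rose and 32.2% fell. Of the 13 G protein alpha subunits, 4 rose, 6 fell and 3 did not pass (median -0.03), with Gna15 (-5.80, SE 0.45) and Gna14 (3.92, SE 0.06) furthest from 0. Among the 8 regulators of G protein signalling, 1 rose, 6 fell and 1 did not pass (median -1.25), led by Rgs7 (-3.04, SE 0.11) and Rgs2 (-2.94, SE 0.10). Receptor kinases and arrestins, 7 in number, gave a median of -0.50, and 3 rose and 4 fell, headed by Arrb2 (-1.92, SE 0.13) and Grk3 (-1.44, SE 0.11). Of the 7 phospholipase C beta and IP3 receptors, 3 rose and 4 fell (median -0.32), with Plcb1 (-3.94, SE 0.10) and Plcb3 (3.12, SE 0.06) furthest from 0. Among the 9 adenylyl cyclases, 3 rose, 5 fell and 1 did not pass (median -0.41), led by Adcy8 (-4.09, SE 0.51) and Adcy4 (-2.52, SE 0.30). Protein kinase A and phosphodiesterase genes, 12 in number, gave a median of -0.29, and 3 rose, 6 fell and 3 did not pass, headed by Pde3b (-3.95, SE 0.15) and Pde4b (-3.48, SE 0.09). Of the 2 subunits of G protein-gated potassium channels, 0 rose, 1 fell and 1 did not pass (median -1.36), with Kcnj3 (-2.42, SE 0.28) furthest from 0. Among the 10 genes of noradrenaline supply and clearance, 1 rose and 9 fell (median -0.48), led by Slc22a3 (5.56, SE 0.12) and Maob (-1.10, SE 0.09). Gna14 encodes an alpha subunit of the Gq family and Slc22a3 a low-affinity transporter that takes up noradrenaline. Plcb2 had no UMI in perineurial cells, so its fold change is not given.

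In immune cells against other cells, the median over all genes tested was -0.10, and 36.4% of them rose and 40.1% fell. Of the 13 G protein alpha subunits, 6 rose and 7 fell (median -0.39), with Gna15 (6.1, SE 0.10) and Gna13 (1.92, SE 0.06) furthest from 0. Among the 8 regulators of G protein signalling, 2 rose and 6 fell (median -1.73), led by Rgs2 (4.51, SE 0.05) and Rgs10 (4.15, SE 0.05). Receptor kinases and arrestins, 7 in number, gave a median of 0.99, and 6 rose and 1 fell, headed by Arrb2 (3.83, SE 0.06) and Grk2 (2.31, SE 0.06). Of the 7 phospholipase C beta and IP3 receptors, 3 rose and 4 fell (median -0.65), with Plcb2 (5.91, SE 0.17) and Itpr3 (-2.24, SE 0.09) furthest from 0. Among the 9 adenylyl cyclases, 2 rose and 7 fell (median -1.85), led by Adcy7 (4.39, SE 0.06) and Adcy5 (-3.18, SE 0.13). Protein kinase A and phosphodiesterase genes, 12 in number, gave a median of 0.32, and 6 rose, 3 fell and 3 did not pass, headed by Pde3b (5.14, SE 0.06) and Pde3a (-3.72, SE 0.08). Of the 3 subunits of G protein-gated potassium channels, 1 rose, 1 fell and 1 did not pass (median 0.28), with Kcnj3 (-2.29, SE 0.19) and Kcnj9 (0.91, SE 0.38) furthest from 0. Among the 10 genes of noradrenaline supply and clearance, 2 rose, 5 fell and 3 did not pass (median -0.14), led by Slc22a3 (-3.15, SE 0.25). Gna15 encodes the Gq family alpha subunit of blood cells, and Adcy7 an adenylyl cyclase that beta receptors can drive through Gs.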

How the data were processed

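Single cells of 2 libraries made with 10x Genomics 3' chemistry were analysed. The authors deposited raw UMI counts per gene and cell barcode, not normalized, made with Cell Ranger 6.1.2 on mm10 per the submitters' processing notes, and no source used here gives the counting options. Barcodes with under 500 genes, under 1000 UMIs or 20% or more mitochondrial UMIs were left out, and doublets scored by Scrublet in scanpy 1.11.5 were removed within each library. The UMIs of each cell were divided into 2 random shares (probability 0.5). One share, without adrenergic receptor genes, was clustered on 3000 variable genes, 30 principal components and 15 neighbours with the Leiden method at resolution 1 (0.8 for neurons), and clusters were named by marker lists. All UMIs were then summed per library and population, so each comparison rests on 4 sums. edgeR 4.0.16 fitted its quasi-likelihood model with TMM scaling, filterByExpr and the library as a block, which pairs populations of 1 suspension, and p-values were adjusted by Benjamini-Hochberg over all genes tested. With 1 residual degree of freedom the tests lean on the spread shared across genes, with 6.275 prior degrees of freedom in neurons and infinitely many in satellite glia. On simulated counts 72.45% of 4-fold changed genes were called for mural cells and 98.97% for satellite glia.

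The members and gene lists were chosen with earlier results of these data known. Named genes were the 8 members, the 3 genes of likest pattern for members with at least 50 UMIs, and in each signalling list the genes past the threshold with the largest fold changes, up to 2 of which are given in 4 comparisons, with counts alone in the others. The perineurial comparison, the scaling to totals and the fit without 3 neuron clusters were added after seeing the data. DESeq2 1.42.0 served as an alternative. Intervals are exact at 95% and cover counting error only. Adjusted p-values given for an alternative come from that alternative's own fit over all genes.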

Additional observations from a re-analysis of the deposited data

Results flagged for a closer look

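The unnamed cluster of 834 shallow droplets, which entered no comparison, held RNA of all 3 alpha 2 receptor genes above the limit that a count of 0 allows (2.841 CPM in library 1 and 3.27 CPM in library 2). Adra2a stood at 57.77 CPM in library 1 (61 UMIs, exact 95% interval 44.19 to 74.2) and 62.14 CPM in library 2 (57 UMIs, 47.06 to 80.5). Adra2c stood at 42.62 and 41.42 CPM from 45 and 38 UMIs, and Adra2b at 16.1 and 10.9 CPM from 17 and 10 UMIs. No UMI of Adra1a, Adra1b, Adra1d, Adrb1 or Adrb3 was found there. The cluster was led by the neuronal genes Scg2, Syt4 and Slc6a2, with Th at 531.3 and 594.1 CPM and Malat1 at 6518 and 6331 CPM, against Malat1 at 20366 and 18807 CPM in the shallow neuron cluster.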

How the results depend on the processing

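Over the alternatives, 537 fold changes of members kept their direction and side of the threshold or moved within the spread between libraries. Of the others, 49 lost the threshold, 11 gained it, 4 reversed and 99 moved, the last all with a library left out. The cause was not tested unless given. Of 44 mean levels of members checked by cell type, 26 moved by at least the SD between libraries in cells thinned to 1500 UMIs, and 18 did not. The thinned level over the full one ranged from 0.239 to 2.555, with a median of 1.079. Numbers of members called moved by over 1.5 times as follows. DESeq2 called 3 in neurons (5 by edgeR), 2 in the Shox2-rich and Rxfp1-rich neurons (4), 4 in fibroblasts (7), 3 in immune cells (5), 0 between the neuron types (1), 1 in smooth muscle against pericytes (2) and 1 in satellite glia against Schwann cells (2). Between the neuron types, DESeq2's size factors in edgeR, UMIs that clustering had not used and thinned cells each called 0. UMIs that clustering had not used, which halve the depth, called 2 in the neurons of both types and 1 in smooth muscle. Cells thinned to 1500 UMIs, which also test fewer UMIs, called 3 each in neurons, mural cells (6), blood endothelial cells (6), fibroblasts, immune cells and perineurial cells (6), and 1 each in the neurons of both types, smooth muscle and satellite glia. Satellite glia gave 1 with doublets kept and 1 at resolution 2, and the neuron types 2 at resolution 2.

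The reversed fold changes were those of Adra2a in the neurons of both types with totals in place of TMM (0.15), Adra2c between the neuron types at resolution 2 (1.88), and Adra2b in satellite glia with no filter (0.0072) and with UMIs that clustering had not used (0.11). None had passed in the fit reported above, and Adra2c at resolution 2 passed (adjusted p = 0.00444 by edgeR). At that resolution shallow Shox2-rich droplets stood against deep Rxfp1-rich ones. Fitted with no replicate block, neurons called 6 members and every other comparison the same number as with it. Leaving out a library leaves 1 sum per population and no residual degrees of freedom, so it gave values with no test. Scaling to totals moved the median log2 fold change of all genes from -0.10 to -0.54 in immune cells and from -0.04 to -0.37 in fibroblasts. Depth limits Adra1d, Adrb3 and all alpha 1 values in neurons.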
